A study of Mus musculus with 18 samples.

Results

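The comparison described here is that of Cebpa-deleted with control alveolar type II cells after 2 h of hyperoxia, which rests on 6 of the 18 microarrays of the study, chosen by the titles of the samples. Alveolar type II cells are the epithelial cells of the lung that make surfactant, and hyperoxia is breathing of oxygen at a high concentration. The 3 control arrays (replicates 1, 2 and 3) came from littermates that carried floxed Cebpa alleles without the rtTA or without the Cre transgene. The 3 Cebpa-deleted arrays (replicates 2, 3 and 4) came from floxed mice whose genotype label reads CCSP/rtTA/CEBPa(flx/flx). CCSP is the promoter of a Clara cell gene, here in front of rtTA, a doxycycline-dependent activator that switches on Cre. The Cre transgene itself is not named in that label, while the series design places the loss of Cebpa in Clara cells in early gestation, with type II cells following around term. All cells came from mice of 7 to 8 weeks. Hyperoxia rests on the series design, since the description of every sample says air. Which animals each array stands for is not stated, so p-values speak only of the spread among arrays, which may be technical. In the main fit that spread is pooled over all 18 arrays.

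C/EBPα, the product of Cebpa, is a transcription factor of the basic leucine zipper family, whose members bind DNA as pairs. Mice that lack it in the lung epithelium form immature type II cells with little surfactant lipid, and the factor is also known from liver and fat for its control of lipid, detoxification and acute phase genes. The question of the comparison is which genes differ between the genotypes early in the exposure. All values are expression on the log2 scale, on which a difference of 1 is a 2-fold difference, for 19938 genes with 1 value each. A gene is called when limma's moderated test gives an adjusted p below 0.05 in a fit to all 18 arrays.

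Before the genes, the arrays themselves differed. Cebpa-deleted replicate 2 stood apart from its own group: it correlated with the other Cebpa-deleted arrays with r of 0.978 to 0.987 across genes, and with control arrays with r of up to 0.990. Its root mean square deviation from the group mean was 0.208, the largest of the 6 arrays, followed by replicate 4 with 0.190, against 0.105 to 0.153 for the controls. The interquartile range of all values was also widest on replicate 2 (2.55), with 2.16 and 2.35 on the other Cebpa-deleted arrays and 2.13 to 2.38 on the controls. The main gene lists are therefore described also without replicate 2. The median SD of a gene among the Cebpa-deleted 2 h arrays was 0.158, the largest of the 6 groups of the study, and 0.095 to 0.136 in the others. The SEs and p-values of the main fit pool the spread of all 6 groups, and so draw in part on these smaller spreads. Surfactant protein genes, which mark the labelled cell type, read high on all 6 arrays. Sftpa1, Sftpb and Sftpc lay between 13.16 and 13.85 on arrays whose values ran from 2.83 to 13.86. So near the top of the scale, they do not measure the share of other cells. RMA values have no zero, so the absence of a gene cannot be read from them.

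Cebpa, the deleted gene, was measured first. It read 10.43, 10.46 and 10.68 on the control arrays and 9.98, 8.96 and 9.31 on Cebpa-deleted replicates 2, 3 and 4. The groups did not overlap, and replicate 2 lay nearest to the controls. The mean difference was -1.10 on the log2 scale (SE 0.18, adjusted p = 0.00461). Without replicate 2 it was -1.38 (adjusted p = 2.01e-05), and in a fit restricted to the 6 arrays of this time the SE was 0.23 and the adjusted p was 0.173. The sources used here do not say which part of the gene the array feature reads, so the remaining signal need not be intact transcript.

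The other members of the C/EBP family were not lower as a group. Cebpg, a partner that lacks a strong activation domain, read 8.67, 8.58 and 8.63 in controls and 9.14, 9.15 and 9.10 in Cebpa-deleted cells. The 2 groups were far apart beside their spread, replicate 2 included, and Cebpg rose by 0.51 (SE 0.12, adjusted p = 0.0357). When each array of this time was dropped in turn, Cebpg was still called in 1 of the 6 refits. Cebpb, which is induced in inflammation, differed by 0.13 and Cebpd by 0.13, with overlapping arrays and adjusted p of 0.76 and 0.883. Cebpe differed by -0.14 and Ddit3, the stress-induced member also called CHOP, by -0.15, and neither passed.

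**Figure D1:**
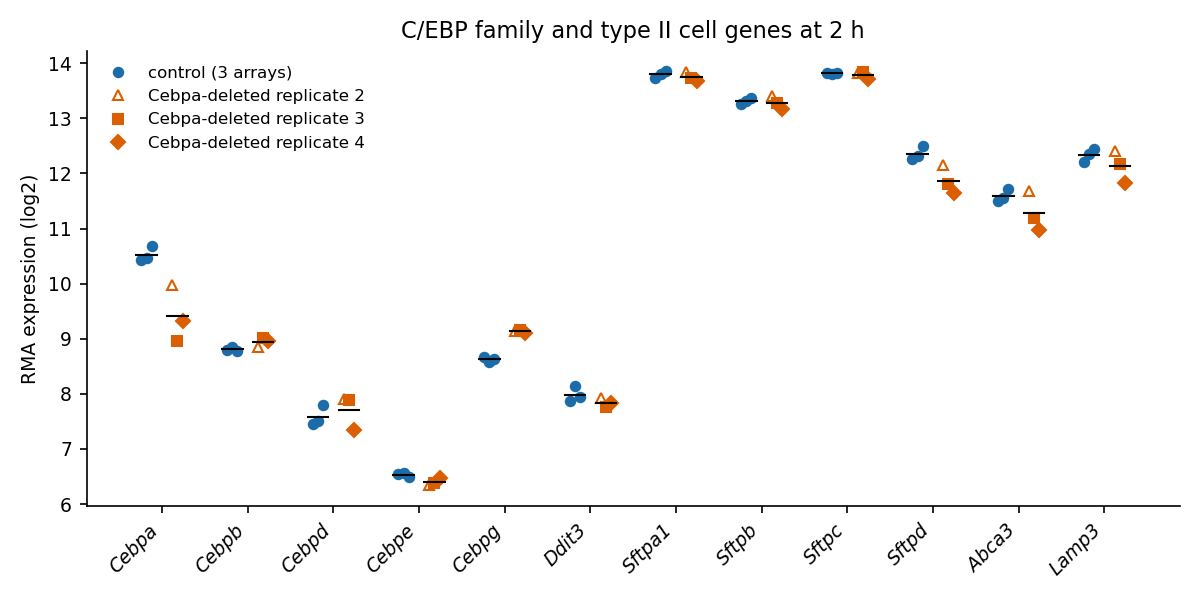
Expression (log2) of the 6 measured C/EBP family genes and of 6 type II cell genes on each array at 2 h, with controls in blue, Cebpa-deleted arrays in orange and a black line at each mean of 3. Cebpa is lower on all 3 Cebpa-deleted arrays, with replicate 2 (open triangle, 9.98) nearest to the controls, Cebpg is higher on all 3, and Sftpa1, Sftpb and Sftpc lie together in both groups.

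In all, 280 genes were called at 2 h, 239 of them higher and 41 lower in Cebpa-deleted cells, which is 1.4% of the genes tested in either direction, 1.2% higher and 0.206% lower. Higher genes made up 85.4% of the calls, and 72.3% after a second quantile normalization. The arrays of the genotypes did not overlap in 238 of the 239 higher and 39 of the 41 lower genes, whereas of all genes 6.95% were higher and 5.56% lower without overlap, 12.5% together. Replicate 2 was the Cebpa-deleted array nearest to the control mean in 190 of the higher and 34 of the lower genes. The count hung on single arrays. Dropping control replicate 1 or control replicate 2 left 167 genes, and dropping control replicate 3 left 54. Dropping Cebpa-deleted replicate 3 left 25 genes, whereas dropping replicate 2 of that genotype gave 729, with 2.68% of genes higher and 0.978% lower. A fit restricted to the 6 arrays of this time called 1 gene, Il1f9, while 1586 had an unadjusted p below 0.05. A fit that took the interquartile range of the arrays as covariate (range-adjusted below) called 999 genes, 5.01% of all, with 2.82% higher and 2.19% lower, among them all 280. Of the called genes 56 of the higher and 7 of the lower differed at least 2-fold.

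The genes lower after Cebpa deletion included cytokines, a complement component, detoxifying enzymes and lipid enzymes. Il1f9, which encodes the epithelial cytokine interleukin-36γ, read 6.93, 6.86 and 6.90 in controls and 5.66, 5.58 and 5.56 in Cebpa-deleted cells. The arrays of each genotype lay close together and far from the other genotype, and it was the largest fall (-1.30, SE 0.22, adjusted p = 0.00684). Pon1, a paraoxonase that hydrolyses lipid peroxides and organophosphates, read 10.69, 10.33 and 10.96 in controls and 9.38, 9.15 and 9.68 after deletion. It fell by 1.26 to 41.8% of the control level (SE 0.17, adjusted p = 0.00168). Gdpd2, a member of the glycerophosphodiester phosphodiesterase family, read 8.97, 8.46 and 8.71 against 7.44, 7.52 and 7.78 and fell by 1.13 (SE 0.15, adjusted p = 0.00168). In these 3 genes replicate 2 was as low as the other Cebpa-deleted arrays or close to them. Pon1, Gdpd2, Gjb6 and Cebpa were the 4 lower genes still called whichever of the 6 arrays was dropped.

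The promoters of the lower genes were searched for a pattern like that bound by C/EBP factors, the letters TTGC, any 2 bases, then AA, on both strands of the 250 bases before to 50 bases after each start, in the promoter sequences of RefSeq (GRCm38.p6). Of the 41 lower genes 35 had a promoter in the table, and in 9 of these (25.7%) at least 1 promoter held the pattern, as did 17 of 173 higher genes (9.83%) and 1753 of all 15563 measured genes with a promoter (11.3%). A match is a description of these letters and not evidence of binding, and the shares were not tested. The 3 largest falls that held it, and the largest that did not, are shown by their 250 bases before the start with the pattern in capitals. The promoter shown for Gdpd2, 1 of 2 in the table, holds it in 2 places, that of Pon1 in 1, and that of Il6 in 1 that reads as the pattern on the opposite strand. None stands in the promoter of Il1f9, the gene with the largest fall.
Pon1, chr6:5193947-5194196 (- strand): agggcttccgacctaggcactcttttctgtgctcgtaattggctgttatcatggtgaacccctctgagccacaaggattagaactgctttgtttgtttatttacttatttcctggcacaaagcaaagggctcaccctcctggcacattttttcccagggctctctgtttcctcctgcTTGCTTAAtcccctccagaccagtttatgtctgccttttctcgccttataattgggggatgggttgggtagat
Gdpd2, chrX:100729597-100729846 (+ strand): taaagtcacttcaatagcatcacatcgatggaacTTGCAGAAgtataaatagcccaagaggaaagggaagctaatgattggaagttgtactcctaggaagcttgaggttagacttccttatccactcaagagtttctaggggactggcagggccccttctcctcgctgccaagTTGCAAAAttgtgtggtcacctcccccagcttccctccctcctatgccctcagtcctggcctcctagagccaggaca
Il6, chr5:30012864-30013113 (+ strand): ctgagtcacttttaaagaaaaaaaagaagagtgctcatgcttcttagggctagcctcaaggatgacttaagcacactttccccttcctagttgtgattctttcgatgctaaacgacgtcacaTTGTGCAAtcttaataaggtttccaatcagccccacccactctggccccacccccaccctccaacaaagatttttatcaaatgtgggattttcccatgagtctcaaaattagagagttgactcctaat
Il1f9, chr2:24186226-24186475 (+ strand): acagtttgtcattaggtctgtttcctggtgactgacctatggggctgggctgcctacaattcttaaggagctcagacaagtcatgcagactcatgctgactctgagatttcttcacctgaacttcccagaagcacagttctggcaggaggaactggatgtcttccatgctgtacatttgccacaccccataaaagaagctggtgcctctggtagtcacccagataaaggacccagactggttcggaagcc

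Cytokine genes were among the falls. Il6, an inflammatory cytokine with a long known C/EBP-binding promoter, read 8.78, 8.64 and 8.94 in controls and 8.27, 7.74 and 7.28 on replicates 2, 3 and 4. The groups did not overlap, and it fell by 1.02 (SE 0.22, adjusted p = 0.022). Il33, an alarmin stored in the nuclei of type II cells, read 11.17, 11.44 and 11.93 in controls and 11.17, 10.25 and 10.14 after deletion. The lowest control and replicate 2 read the same to 2 decimals, and it fell by 0.99 (SE 0.23, adjusted p = 0.0403). Over the 6 refits without an array, Il6 and Il33 were each called in 2 and Il1f9 in 5. Of 33 measured interleukins and their receptors, 3 fell and 1 rose, against 0.206% and 1.2% of all genes, and the median of the list was 0.10 against -0.02 for all genes. The 1 that rose was Il4ra, the receptor chain for interleukins 4 and 13. It read 8.92, 9.23 and 9.17 in controls and 9.78, 10.09 and 9.81 after deletion, with no overlap, and rose by 0.79 (SE 0.10, adjusted p = 0.00168), a call that held in all 6 of those refits. Of 32 chemokines only Cxcl12 was called (0.71, adjusted p = 0.00446), while Ccl20, made by epithelium, lay lower on all 3 arrays without passing (-0.63, adjusted p = 0.101).

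Detoxifying and oxidative enzymes were lower in several cases. Vnn1, a pantetheinase that sets free cysteamine, read 8.92, 8.46 and 9.11 in controls and 8.02, 7.50 and 7.51 after deletion, and fell by 1.15 (SE 0.21, adjusted p = 0.00968). Its relative Vnn3 read 7.76, 7.55 and 8.06 against 7.13, 7.27 and 7.14 and fell by 0.61 (SE 0.14, adjusted p = 0.0383). Aox3, an aldehyde oxidase, read 10.87, 10.85 and 10.94 against 10.37, 9.55 and 9.99 and fell by 0.91 (SE 0.18, adjusted p = 0.0117). None of these 3 genes had overlapping arrays, and in Aox3 replicate 2 lay nearest to the controls. In the list of 33 xenobiotic and oxidase enzymes 4 fell, the fourth being Pon1, and 1 rose, the flavin monooxygenase Fmo1 (1.02, adjusted p = 0.0166). Of all genes 0.206% fell and 1.2% rose. The list as a whole did not shift, with a median of 0.04. Without control replicate 3 or Cebpa-deleted replicate 3, only Pon1 of the list was called. Nor was any of its genes called higher without control replicate 2 or Cebpa-deleted replicate 4. With the 6 arrays of this time alone, or with the replicate number as a block, 0 were called in either direction. Among 34 antioxidant and NRF2 target genes Gpx8, a peroxidase of the endoplasmic reticulum, was the 1 that fell (-0.52, adjusted p = 0.0288), and the median was 0.03. That list had 0 calls without control replicate 2 or 3, and 0 without Cebpa-deleted replicate 3 or 4.

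Further falls belonged to secreted and surface proteins. C6, a component of the terminal complement complex, read 10.01, 10.19 and 10.42 in controls and 9.66, 8.64 and 8.90 after deletion, and fell by 1.14 (SE 0.20, adjusted p = 0.00835). Chia1, an acidic chitinase, read 11.13, 11.28 and 11.69 against 10.66, 10.13 and 10.35 and fell by 0.99 (SE 0.21, adjusted p = 0.0199). Itga9, an integrin chain, read 10.36 ± 0.05 in controls against 9.39 ± 0.46 (SD, n = 3 each) and fell by 0.97 (SE 0.20, adjusted p = 0.0202). All 3 had groups without overlap and a replicate 2 that lay between the controls and the other Cebpa-deleted arrays. Gjb6, the gap junction protein connexin 30, fell by 0.88 (SE 0.14, adjusted p = 0.00441), and Mme, the cell surface peptidase neprilysin, by 0.79 (SE 0.17, adjusted p = 0.0227). Tmem163 fell by 0.91 (adjusted p = 0.0166). Ighg3, an immunoglobulin constant region made by B cells, fell by 0.88 (adjusted p = 0.0441), with values of 6.06 to 6.57 in controls and 5.21 to 5.64 after deletion. Of the 29 genes of collagens and matrix, Col6a1 (-0.68, adjusted p = 0.0206) and Lamb3, a laminin chain of epithelial basement membrane (-0.66, adjusted p = 0.0069), fell and none rose. Of all genes 0.206% fell and 1.2% rose. Without replicate 2, and also in the range-adjusted fit, 6 genes of that list were called higher and 2 lower. Those fits called 2.68% and 2.82% of all genes higher, and 0.978% and 2.19% lower. By contrast, the matrix list had 0 calls once replicate 3 of either genotype was dropped. It also had 0 when the 6 arrays of this time were fitted alone, or when the replicate number was taken as a block. Leaving out control replicate 1 kept 1 lower gene, control replicate 2 kept 2, and Cebpa-deleted replicate 4 kept 1. The growth factor Bmp2 fell by 0.68 (adjusted p = 0.0258).

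Surfactant and lipid genes lay slightly lower, with few calls. Of 25 measured type II cell genes 2 fell (Il33 and Fgfr2, the receptor for FGF7 and FGF10, by 0.55, adjusted p = 0.0382), against 0.206% of all genes, and none rose. Negative differences were found in 21 of the 25, as in 10907 of all 19938 genes, and the median of the list was -0.19. On the single arrays the mean of these genes was 12.17, 12.26 and 12.43 in controls and 12.35, 12.01 and 11.79 on replicates 2, 3 and 4. Replicate 2 thus lay among the controls and the other 2 Cebpa-deleted arrays below them. Without replicate 2 the median was -0.33 with 8 genes lower, and in the range-adjusted fit it was -0.30 with 12 lower. Those fits called 0.978% and 2.19% of all genes lower. Without replicate 4 the median of the list was -0.08 and without control replicate 3 it was -0.13, and 0 of its genes were called in either. None was called without control replicate 2 or Cebpa-deleted replicate 3. Sftpa1, Sftpb and Sftpc differed by -0.05, -0.03 and -0.03, each with arrays of both genotypes interleaved. They read close to the highest value of each array (13.76 to 13.86), where a difference may be compressed, which was not tested. Sftpd, the collectin surfactant protein D, read 12.27, 12.31 and 12.50 against 12.16, 11.81 and 11.64, without overlap, and did not pass (-0.49, adjusted p = 0.155). Abca3, the lipid pump of lamellar bodies, differed by -0.32 (adjusted p = 0.423) and Lamp3, their membrane protein, by -0.20 (adjusted p = 0.687).

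Among lipid enzymes Gpam, which makes the first step of glycerolipid synthesis, was the 1 called gene of 30 in the surfactant lipid and lamellar body list. It read 10.48, 10.80 and 11.16 in controls and 10.52, 9.83 and 9.67 after deletion, so that replicate 2 lay above the lowest control, and fell by 0.81 (SE 0.18, adjusted p = 0.0309). Lpcat1, which makes the main surfactant phospholipid, differed by -0.45 and did not pass (adjusted p = 0.16). The list median was -0.06, and 4 genes were lower without replicate 2, 7 in the range-adjusted fit and 0 without replicate 4. Of all genes 0.206% were called lower in the main fit, 0.978% without replicate 2 and 2.19% in the range-adjusted fit. All 18 measured cholesterol synthesis genes had negative differences, as did 10907 of all 19938 genes. Those of the list ran from -0.47 to -0.04 with a median of -0.24, and 0 of them passed. The median moved from -0.39 without Cebpa-deleted replicate 2 to -0.08 without replicate 4 and -0.09 without control replicate 3. Without replicate 2 the list had 1 called gene, and 7 in the range-adjusted fit. The mean of these genes was 9.24, 9.10 and 9.63 in controls and 9.45, 9.07 and 8.70 after deletion, and the groups overlapped. Fdps (-0.43, adjusted p = 0.381) and Sqle (-0.37, adjusted p = 0.254) were the 2 of smallest p. Fatty acid synthesis and SREBP genes had a median of -0.15 with 0 of 23 called. Without replicate 2 it was -0.28 with 2 lower, in the range-adjusted fit -0.30 with 10 lower, and without replicate 4 it was -0.09 with 0. Insig1, the sterol-regulated partner of SCAP, differed by -0.44 (adjusted p = 0.367).

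**Figure D2:**
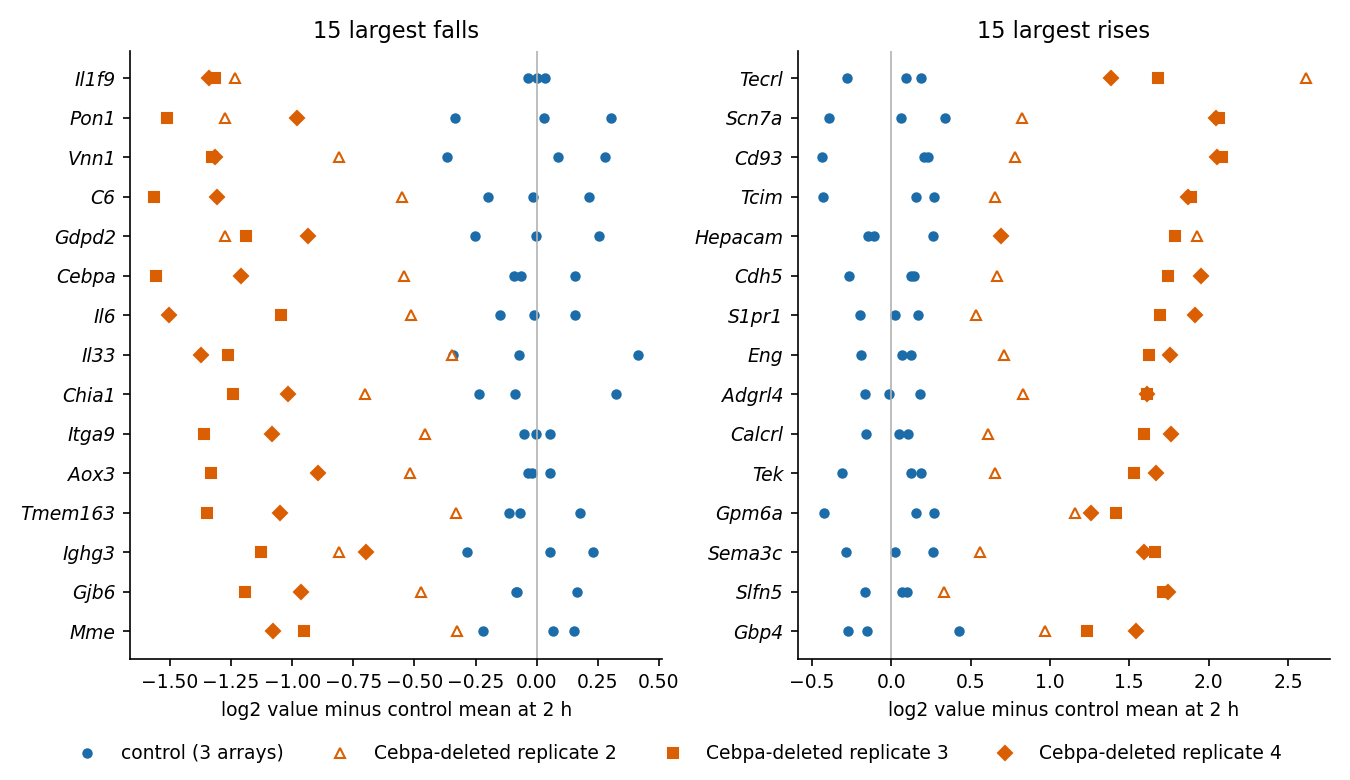
Values of the 15 largest falls and the 15 largest rises among called genes without overlap, each array as its log2 value minus the control mean at 2 h, with controls in blue and Cebpa-deleted arrays in orange. Replicate 2 (open triangle) lies between the controls and the other Cebpa-deleted arrays in most genes, as in Scn7a and Itga9, but with the others in Il1f9, Pon1 and Gdpd2 and above them in Tecrl.

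The remaining genes of the 41 were chosen for mention after their values were seen. Lipid handling genes among them were Lipg, a phospholipase (-0.78), Abhd5, the activator of the fat lipase ATGL (-0.53), Rbp4, the retinol carrier (-0.69), and Stard5, a sterol transfer protein (-0.43). Prnp, the prion protein gene (-0.65), Emb, the chaperone of lactate transporters (-0.50), and Hnmt, which inactivates histamine (-0.77), were lower too. Btc, a ligand of the epidermal growth factor receptor, read 7.49, 7.28 and 7.43 in controls and 6.87, 6.91 and 7.01 after deletion, and fell by 0.47 (adjusted p = 0.0244). Btc, Dmkn, Klk14 and Pnliprp1 were the 4 lower genes not called at 0 h or at 24 h.

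The genes higher after Cebpa deletion included many endothelial genes. Of 28 general endothelial markers 19 rose and none fell, against 1.2% of all genes that rose, and their median was 0.95 against -0.02 for all genes. Cdh5, the junction protein VE-cadherin, read 8.90, 8.91 and 8.50 in controls and 9.44, 10.52 and 10.72 on replicates 2, 3 and 4 (1.45, SE 0.24, adjusted p = 0.00592). Pecam1, the adhesion molecule CD31, read 8.96, 8.90 and 8.65 against 9.27, 10.16 and 10.20 (1.04). Calcrl, the receptor of adrenomedullin, read 9.29, 9.23 and 9.02 against 9.79, 10.77 and 10.94 and rose by 1.32 (SE 0.21, adjusted p = 0.00441). In each of them all Cebpa-deleted arrays lay above all controls, replicate 2 by the least. Ramp2, the partner protein of Calcrl, rose by 0.98 (adjusted p = 0.0188), Kdr, the VEGF receptor 2, by 0.92 (adjusted p = 0.0231) and Flt1, the VEGF receptor 1, by 0.95 (adjusted p = 0.0188). The markers that did not pass included Vwf, stored by large vessel endothelium (0.42, adjusted p = 0.353), Nos3 (0.19, adjusted p = 0.726) and Esam, whose genotypes had nearly equal means (adjusted p = 0.999).

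The mean of the 28 endothelial genes was 8.00, 7.95 and 7.72 on the control arrays and 8.25, 8.99 and 9.08 on Cebpa-deleted replicates 2, 3 and 4. The genes were thus measured well above the low end of the scale in controls too, and the 2 Cebpa-deleted arrays farthest from the controls were the same ones in which the type II mean was lowest. The median ranged from 0.77 to 1.27 over the 6 refits without an array, but the calls depended on single arrays. They numbered 22 without Cebpa-deleted replicate 2, where 2.68% of all genes were called higher. There were 0 without replicate 3 and 8 without replicate 4, and 13, 11 and 2 without control replicates 1, 2 and 3. With the 6 arrays alone, and with the replicate block, 0 of the 28 passed. In RNA from a whole isolate, more cells of a type and more RNA per cell cannot be told apart, and the part of other cells in these differences was not tested. Of 21 markers of capillary and vessel subtypes 4 rose: Plvap, the diaphragm protein of fenestrae (1.15, adjusted p = 0.0109), Kit, a receptor also found on mast cells (1.14, adjusted p = 0.0069), Car4, a carbonic anhydrase of lung capillaries (0.93, adjusted p = 0.0092), and Ednrb, the endothelin receptor B (0.89, adjusted p = 0.0211). That list had 8 calls without replicate 2, 1 without control replicate 3 and 0 without Cebpa-deleted replicate 3. The share of all genes called higher was 1.2% in the main fit and 2.68% without replicate 2. Aqp1, a water channel of capillary endothelium, read 9.52, 9.12 and 9.09 against 9.73, 10.57 and 10.59 and rose by 1.05 (adjusted p = 0.0113). Lyve1, a lymphatic marker, differed by 1.16 without passing (adjusted p = 0.0821), and 0 of 7 lymphatic genes were called.

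Genes of the mesothelium, the lining of the lung surface, were higher with a different pattern over the arrays. Msln (mesothelin) read 7.78, 7.32 and 7.79 in controls and 8.76, 8.73 and 8.57 after deletion, and rose by 1.06 (SE 0.14, adjusted p = 0.00168). Upk3b, a uroplakin, read 7.89, 7.43 and 7.85 against 8.68, 9.01 and 8.94 (1.15, SE 0.19, adjusted p = 0.00592). Lrrn4 read 6.79, 6.33 and 6.41 against 7.49, 7.58 and 7.57 (1.04, SE 0.13, adjusted p = 0.00168), and the uroplakin Upk1b rose by 1.21 (SE 0.19, adjusted p = 0.00441). In these 4 genes replicate 2 lay close to the other Cebpa-deleted arrays and well above all controls. They were 4 of 7 measured mesothelial markers, where 1.2% of all genes were called higher. The list median of 1.04 ranged from 0.90 to 1.13 over the refits without an array, and Msln, Lrrn4 and Upk1b were called in all 6 of those. The other 3 markers did not pass: Wt1, the transcription factor of the mesothelium (0.35, adjusted p = 0.218), Rspo1 (0.23) and the keratin Krt19, which airway cells make too (0.04). With the 6 arrays of this time alone 0 of the 7 markers passed, and with the replicate block 3 did. Aldh1a2, the retinaldehyde dehydrogenase also known from mesothelium and singled out after its values were seen, was among the 20 higher genes called in all 6 refits.

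**Figure D3:**
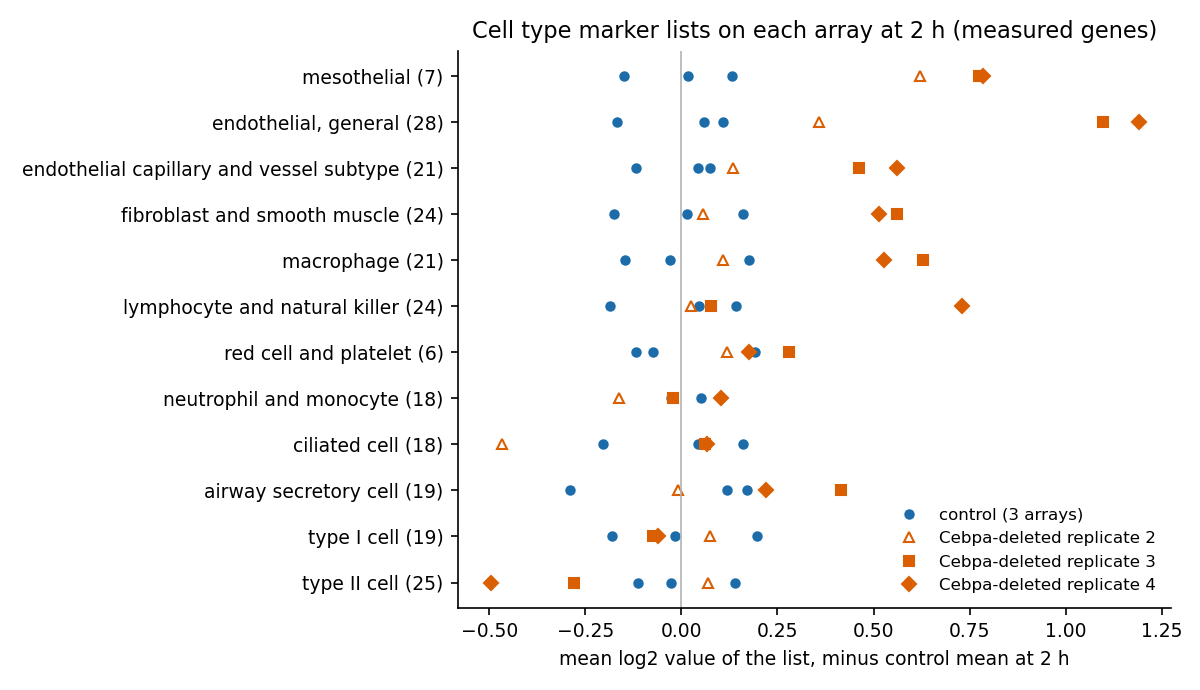
Mean log2 value of each cell type marker list on each array at 2 h, minus the control mean, with the number of measured genes in brackets. The mesothelial means of all 3 Cebpa-deleted arrays (8.46 to 8.62) lie above the controls (7.69 to 7.97), the endothelial mean of replicate 2 (8.25) lies nearer to the controls than those of replicates 3 and 4, and the type II means of replicates 3 and 4 lie below the controls.

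Other cell type lists showed fewer calls. Of 24 fibroblast and smooth muscle markers 2 rose, the proteoglycans Gpc3 and Bgn, where 1.2% of all genes did. Gpc3 read 8.15, 7.90 and 8.46 in controls and 9.27, 9.46 and 8.93 after deletion and rose by 1.05 (SE 0.17, adjusted p = 0.00441), and Bgn rose by 0.98 (adjusted p = 0.0119). Of the 24 markers 4 had negative differences, and the median was 0.31. Acta2 differed by 0.47 (adjusted p = 0.66), Pdgfra by 0.29 and Lum by -0.07. Without replicate 2 there were 8 called genes, as in the range-adjusted fit, and 0 without Cebpa-deleted replicate 3. Of all genes 2.68% were called higher without replicate 2 and 2.82% in the range-adjusted fit. Replicate 2 had a list mean of 7.21, among the controls (6.98 to 7.31), and the others of 7.72 and 7.67. Of 21 macrophage markers 1 rose, Car4, which is also on the capillary list, and the median was 0.36 with 1 negative difference. Marco, a scavenger receptor, differed by 0.71 (adjusted p = 0.0996) and Csf1r by 0.36. Without replicate 2 the list had 7 genes called higher and a median of 0.46, and without Cebpa-deleted replicate 3 it had 0. The macrophage means were 7.62, 7.82 and 7.50 in controls and 7.75, 8.27 and 8.17 after deletion. Of 24 lymphocyte and natural killer genes 0 passed, and replicate 4 alone stood out with a list mean of 7.82 against 6.90 to 7.23 on the other 5 arrays. Il7r, the interleukin 7 receptor, read 9.03 there and 7.41 and 7.84 on the other Cebpa-deleted arrays. Neutrophil and monocyte, red cell and platelet, ciliated and type I cell lists had 0 called genes each, and the airway secretory list had only Pon1. The ciliated list lay lower on replicate 2 alone, at 7.90 against 8.17 to 8.53 on the other 5 arrays.

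Several of the largest rises belonged to none of these cell type lists. Tecrl, an enoyl-CoA reductase-like gene known from heart, read 5.13, 4.76 and 5.22 in controls and 7.65, 6.71 and 6.42 on replicates 2, 3 and 4. It was the largest rise (1.89, SE 0.26, adjusted p = 0.00168), and here replicate 2 lay farthest from the controls. Hepacam, a cell adhesion molecule, read 7.18, 7.22 and 7.59 against 9.26, 9.12 and 8.02 and rose by 1.47 (SE 0.25, adjusted p = 0.00592). Gpm6a, a membrane glycoprotein best known from neurons, read 7.72, 7.13 and 7.83 against 8.72, 8.97 and 8.82 and rose by 1.28 (SE 0.19, adjusted p = 0.00312). Abcg2, an efflux pump for drugs and haem precursors, read 6.30, 5.95 and 5.99 against 7.18, 7.31 and 7.14 and rose by 1.13 (SE 0.18, adjusted p = 0.00441). Replicate 2 lay close to the other Cebpa-deleted arrays in Gpm6a and Abcg2, and in Hepacam replicate 4 was the one nearest to the controls. Tecrl, Gpm6a and Abcg2 were called whichever of the 6 arrays was dropped. Scn7a, a sodium channel gene that is on the list of neural markers, read 8.04, 8.31 and 7.58 against 8.80, 10.04 and 10.02 (1.65, SE 0.26, adjusted p = 0.00441), with replicate 2 nearest to the controls. It was the 1 called gene of 8 on that list, where 1.2% of all genes were called higher, and the list median was 0.04. Sema3c, an axon and vessel guidance ligand, rose by 1.27 (adjusted p = 0.00813), and Bmp6, a BMP ligand made by endothelium among others, by 0.82 (adjusted p = 0.0166).

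Complement genes moved in opposite directions. While C6 fell, 5 of 26 measured complement genes rose, where 1.2% of all genes did: C1s1 (5.84 ± 0.09 in controls, 6.84 ± 0.26 after deletion, SD, n = 3 each, adjusted p = 0.0471), C2 (0.84, adjusted p = 0.00521) and C4b (1.01, adjusted p = 0.00835) of the classical pathway, its inhibitor Serping1 (1.23, adjusted p = 0.00684) and Cfb, factor B of the alternative pathway (0.79, adjusted p = 0.0165). The median of the list was 0.12, and -0.01 without replicate 4. Without Cebpa-deleted replicate 3 none of its genes was called, and without control replicate 3 there was 1. Serping1 read 8.49, 7.98 and 7.89 in controls and 8.97, 9.67 and 9.39 after deletion. C4b read 6.98, 6.86 and 6.88 against 7.91, 8.29 and 7.54, and C2 read 6.70, 6.16 and 6.43 against 7.19, 7.38 and 7.22. All 5 genes had groups without overlap, and in C4b replicate 2 was not the lowest of its group. C1s2, the second mouse gene for the protease C1s, rose as well (1.06, adjusted p = 0.00813). C1s1 and C1s2, like C4b and C4a (0.13, adjusted p = 0.887), are near copies whose probes may share signal. The recognition genes C1qa, C1qb and C1qc, made by macrophages, differed by 0.05 to 0.12 and did not pass.

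Of 28 interferon response genes 4 rose and none fell, against 1.2% and 0.206% of all genes, with a median of 0.19. Ifitm3, a membrane protein that blocks virus entry, read 9.97, 9.89 and 9.51 in controls and 10.03, 11.07 and 11.02 after deletion, and rose by 0.92 (SE 0.20, adjusted p = 0.0215). Trim30a rose by 0.80 (adjusted p = 0.0418), Oasl2 by 0.64 (adjusted p = 0.0296) and Rsad2, the antiviral enzyme viperin, by 0.60 (adjusted p = 0.0117). Replicate 2 lay nearest to the controls in all 4, and without it 11 genes of the list were called higher, where 2.68% of all genes were. Without control replicate 3 or Cebpa-deleted replicate 3 there were 0. Core interferon genes such as Mx1 (-0.02), Oas1a (adjusted p = 0.999), Usp18 (-0.07) and Ifit3 (0.04) showed no call, with arrays of the genotypes interleaved. The guanylate-binding protein gene Gbp4 (1.25, adjusted p = 0.0188) and the schlafen gene Slfn5 (1.26, adjusted p = 0.0188) were among the 15 largest rises. Of 15 genes for antigen presentation 13 had positive differences, as did 9031 of all 19938 genes. The list median was 0.29, and 0.16 without replicate 2. Without overlap 7 of the 15 were higher, against 6.95% of all genes. Only H2-Q4 was called (0.51, adjusted p = 0.0484), a class I gene with close copies, which was called in 0 of the 6 refits without an array.

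**Figure D4:**
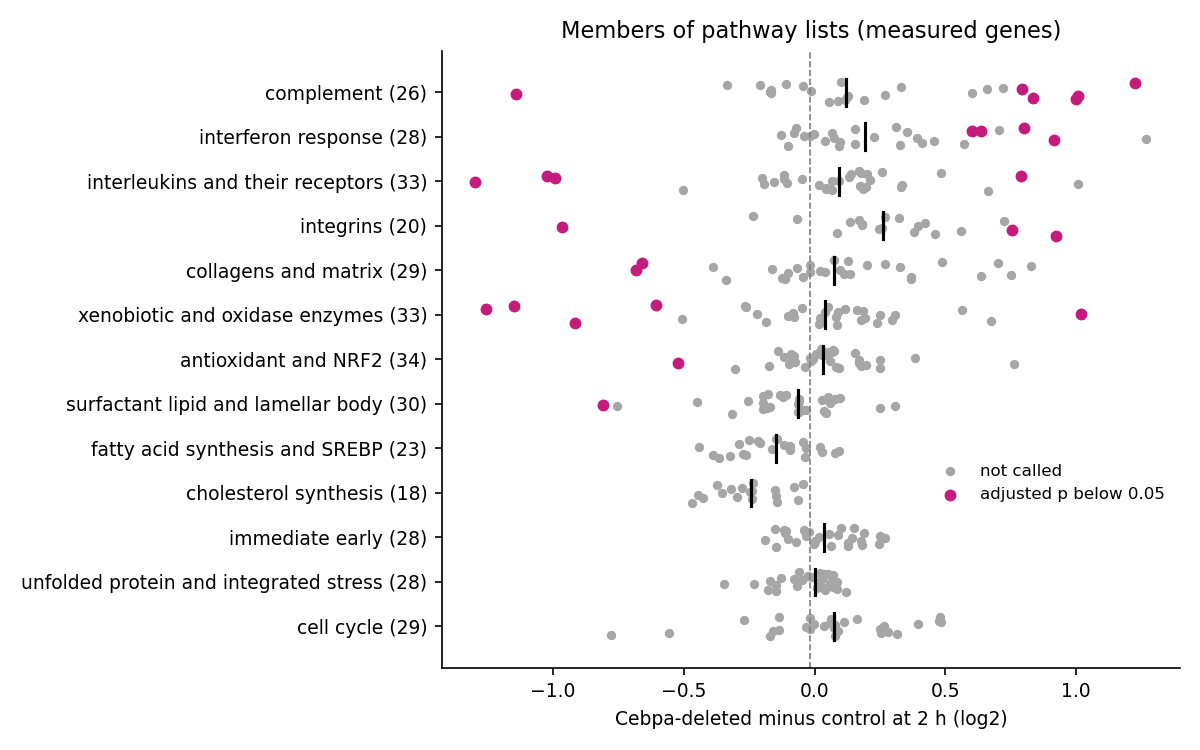
Differences at 2 h (Cebpa-deleted minus control, log2) of the measured members of 13 pathway lists, called genes in magenta, others in grey, the list median as a black bar and the median of all genes (-0.02) as a dashed line. Complement holds calls on both sides, the cholesterol synthesis genes all lie below 0 without a call, and no immediate early or unfolded protein gene is called.

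Single genes of survival, junction and adhesion lists were called, where 1.2% of all genes were called higher. They are given as single genes, since the medians of the p53, apoptosis, hypoxia and junction lists were 0.06, 0.06, 0.02 and 0.01. The death receptor gene Tnfrsf10b rose by 0.64 (adjusted p = 0.0102) as 1 of 19 p53 targets, and Cflar, an inhibitor of death receptor signalling, rose by 0.53 (adjusted p = 0.0129) as 1 of 24 apoptosis regulators. The p53 list had 0 calls without control replicate 3 or Cebpa-deleted replicate 3. In the apoptosis list there were 0 without control replicate 1, control replicate 2 or Cebpa-deleted replicate 3. Epas1, the hypoxia-inducible factor HIF-2α, read 10.88, 10.88 and 10.96 against 11.10, 11.43 and 11.46 and rose by 0.42 (adjusted p = 0.0278). It was the 1 called gene of 24 on the hypoxia and glycolysis list, and it is abundant in endothelium. That list had 2 genes called higher without Cebpa-deleted replicate 2, and 0 when any other array of this time was dropped. The junction genes Cldn5, itself an endothelial marker (0.99, adjusted p = 0.0231), and Tjp1 (0.42, adjusted p = 0.0199) rose as 2 of 21. Tjp1, which encodes the scaffold ZO-1, read 9.93, 9.89 and 9.94 against 10.29, 10.46 and 10.27, with replicate 2 in the middle of its group. The junction list had 0 calls without control replicate 1, 2 or 3 and 0 without Cebpa-deleted replicate 3. It had 1 without replicate 4, and 3 higher and 1 lower without replicate 2. Of 20 integrins Itga1 (0.92, adjusted p = 0.0164) and Itga6 (0.75, adjusted p = 0.0109) rose beside the fall of Itga9, with a list median of 0.26. Without replicate 2 there were 6 higher and 1 lower, where 2.68% and 0.978% of all genes were. Without Cebpa-deleted replicate 3 there were 0.

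The lists of fast stress responses held no calls. None of 28 immediate early genes, 17 heat shock genes, 28 genes of the unfolded protein and integrated stress response, 16 NF-κB targets, 16 glucocorticoid targets or 17 clock genes passed, where 1.4% of all genes did, and their medians lay between -0.03 and 0.19. Without replicate 2, 3 NF-κB targets were called higher, where 2.68% of all genes were, and the other 5 of these lists had none. Dnajb9, a chaperone of the endoplasmic reticulum, had the largest negative difference of the stress response genes (-0.35, adjusted p = 0.187). Nfkbie, an inhibitor induced by NF-κB itself, lay higher on all 3 Cebpa-deleted arrays (7.66 to 7.78) than in controls (7.01 to 7.43) and did not pass (0.43, adjusted p = 0.0726). Nor did any of 28 respiratory chain, 25 proteasome or 29 cell cycle genes pass. The same held for 18 Toll-like receptor genes and adaptors and 24 lung epithelial transcription factors, and the medians of these lists ran from -0.05 to 0.07. Without replicate 2, however, the cell cycle list had 4 genes higher and 1 lower, where 2.68% and 0.978% of all genes were. The cell cycle gene Ccnd1 (cyclin D1) read 10.25, 10.44 and 10.63 against 9.52, 10.08 and 10.04, without overlap, and missed the threshold (-0.56, adjusted p = 0.0652).

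The differences at 2 h were set beside those at 0 h and at 24 h, which were measured on other arrays with their own controls. The interquartile range averaged 2.97 on the Cebpa-deleted and 3.01 on the control arrays at 0 h, against 2.35 and 2.25 at 2 h. Which arrays were normalized together is not given, so differences at 0 h and 2 h may not be on the same scale, which was not tested. Of the 239 higher genes 234 had a difference of the same sign at 0 h and 206 at 24 h. Called the same way were 73 at 0 h and 137 at 24 h, where 0.677% and 24.3% of all genes were called higher. Of the 41 lower genes 40 had the same sign at 0 h and 38 at 24 h, with 4 called lower at 0 h and 35 at 24 h, where 0.181% and 26.4% of all genes were. At neither other time were 87 of the higher and 4 of the lower genes called. Gdpd2, Il1f9, Rbp4 and Dclk1 were lower at all 3 times and 62 genes were higher at all 3. No gene's genotype difference at 2 h differed from that at 0 h after adjustment in limma's test of the difference of differences, and 1279 genes had an unadjusted p below 0.05. The genes of smallest p were Cyp1b1 (-1.10 at 0 h, 0.18 at 2 h), Prame and C1s2 (-0.16 at 0 h, 1.06 at 2 h) for higher values at 2 h, and Srsy, the 5S RNA gene n-R5s136 and Ssx9 for lower ones, all with an adjusted p of 0.494.

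Between 2 h and 24 h 6138 genes differed in their genotype difference, 30.8% of all, with 3280 (16.5%) higher and 2858 (14.3%) lower at 2 h. The count fell to 2727 without control replicate 1, 3928 without control replicate 2 and 3040 without Cebpa-deleted replicate 2 of the 2 h arrays. Among the 24 h arrays it fell to 3798 without control replicate 1, and to 3257 and 2563 without Cebpa-deleted replicates 1 and 2. In the range-adjusted fit 0 genes differed, and 1774 had an unadjusted p below 0.05. That range averaged 1.94 on the Cebpa-deleted 24 h arrays and 2.25 to 2.47 in the other groups at 2 and 24 h. Of the genes called at 2 h, 62 of the 239 higher and 19 of the 41 lower differed between the times. Cebpa was lower by 1.83 at 24 h and by 1.10 at 2 h, a difference of 0.73 (adjusted p = 0.0368). Il6 (-1.98 at 24 h against -1.02, adjusted p = 0.0298 for the difference) and Chia1 (-2.04 against -0.99, adjusted p = 0.0176) likewise lay farther below control at 24 h, whereas for Pon1 (-1.25 against -1.26), Il1f9 (-1.27 against -1.30) and Gdpd2 (-0.99 against -1.13) the test found no difference. Ighg3 was lower at 2 h and higher at 24 h (0.60, adjusted p = 0.00529 for the difference). Tecrl differed by 1.89 at 2 h and by -0.07 at 24 h (adjusted p = 0.00398), and Cebpg by 0.51 and -0.21 (adjusted p = 0.00824). In the endothelial list 1 of 28 genes differed between 2 and 24 h, and its medians were 0.91, 0.95 and 0.66 at 0, 2 and 24 h. The mesothelial list had medians of 0.45, 1.04 and 0.39 with 2 of 7 genes different between 2 and 24 h, and the type II list medians of -0.09, -0.19 and -0.81 with 18 of 25.

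**Figure D5:**
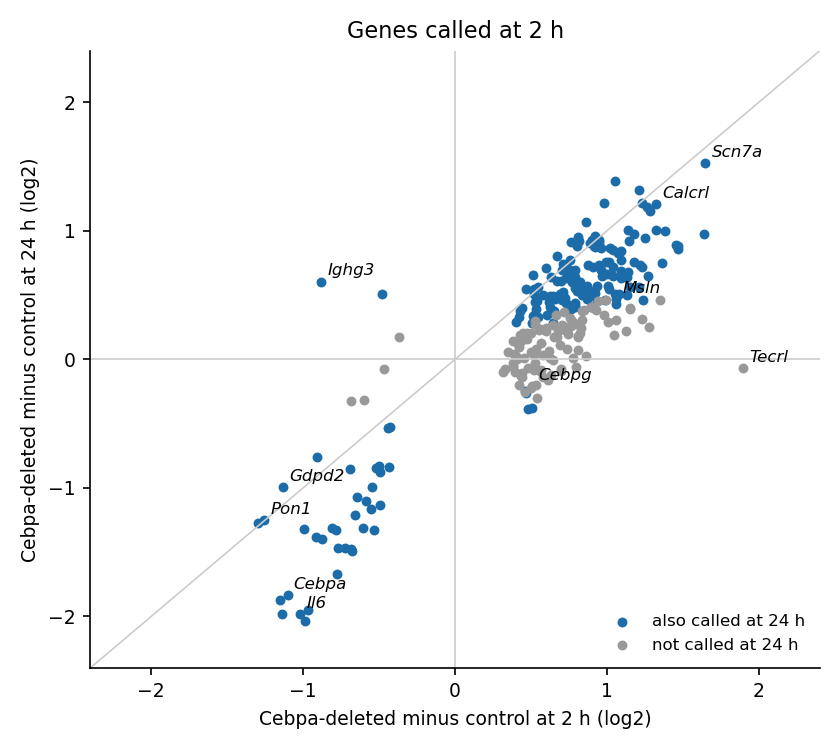
Genotype difference (Cebpa-deleted minus control, log2) at 2 h and at 24 h of the 280 genes called at 2 h, in blue where also called at 24 h, with the line of equal differences. Most genes lie in the quadrants of equal sign, lower genes such as Il6 and Cebpa lie farther below 0 at 24 h, and Tecrl lies at 1.89 and -0.07.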

How the data were processed

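Per the labels' protocols, total RNA from isolated type II cells (guanidine isothiocyanate extraction) was labelled with biotin and hybridized to mouse expression arrays. The deposited values are log2 expression, and the submitters' processing notes name RMA. The version, the genome build and which arrays were normalized together are not given in the sources used here.

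The 21789 features (of 35557) with a single gene symbol were used, and the 1621 with several symbols and 12147 without one were left out. The feature with the highest mean over the 18 arrays stood for each gene, with no filter on low values, which gave 19938 genes. A linear model of 6 group means (3 arrays a group) was fitted to all 18 arrays with limma 3.58.1 (lmFit and eBayes) in R 4.3.3. Tests were two-sided, with Benjamini-Hochberg adjustment over the 19938 genes. Values for a time are Cebpa-deleted minus control within it, and differences between times are contrasts of these. Standard errors are those of the moderated model. For arrays the number of replicates limits the precision.

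The members, the 52 gene lists (1109 of 1201 entries measured) and the rule for named genes were chosen with earlier results of these data known. Lists are described by counts and medians, without a test. Named were the C/EBP family, the 15 largest falls and 15 largest rises among called genes without overlap, up to 6 called genes of a list (or the 2 of smallest p), 6 surfactant genes and the leading differences between times; fewer are printed than the rule allows, members with values named beside them to show a list's spread were chosen after their values were seen, and RIKEN, predicted and olfactory receptor genes were counted without names. Results were recomputed with each array left out, fewer arrays in the fit, other normalizations, the replicate number as a block, array weights, the array range as a covariate, other choices of features, a filter, other eBayes settings and other thresholds. Tested on simulated data of 19938 genes for the 2 h comparison, the fit recovered 82% of genes changed 1.5-fold and 99% of those changed 2-fold, with 7 false calls. The simulated noise was independent, with a spread per gene that was equal in all groups, and no array differed as a whole. These figures therefore do not give the power or error rate on the real 2 h arrays, where spread differed between groups and calls hung on single arrays. Figures were drawn with matplotlib.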

Additional observations from a re-analysis of the deposited data

Results flagged for a closer look

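Genotype differences that were not alike at 2 h and at 24 h, by limma's test of the difference of differences, stood out in number, with 3280 genes higher and 2858 lower at 2 h. Of the C/EBP family Cebpa (0.73) and Cebpg (0.72) lay higher at 2 h than at 24 h on the log2 scale. The 5 largest such values upward were those of Sema3a (2.31), a guidance ligand, Tecrl (1.96), Il13ra2 (1.93), the decoy receptor of interleukin 13, Chil1 (1.87), a chitinase-like protein, and Fbp2 (1.81), a gluconeogenic enzyme. Il13ra2 read 4.08 to 4.33 on all 6 arrays at 2 h, so its value comes from the difference of -1.95 at 24 h. The 5 largest downward were those of Srsy (-3.04), a testis gene, Mir680-2 (-2.28), Krtap5-4 (-2.19), Mir680-1 (-2.11) and Krtap5-2 (-2.09), keratin-associated and microRNA genes among them. With the array range as a covariate none of these differences passed.

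Among 12147 features without a gene symbol, which no comparison of genes used, 8 were called higher and 3 lower at 2 h when all features were tested together. That is 0.0906% of them, below the 0.458% called among all 35557 features. In the same fit 136 features with a single symbol were called higher and 12 lower, whereas 365 were called when only features with a single symbol were fitted. No test for a single outlying array was made within groups of 3.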

How the results depend on the processing

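The count of 280 genes at 2 h ranged from 25 to 729 when an array of that time was left out. It was 1 with only the 6 arrays at 2 h, 168 with the 12 arrays at 2 and 24 h, 19 with the replicate block, 2134 with array weights (gene-by-gene method), 999 with the array range as a covariate and 498 at an adjusted p below 0.1. Added after seeing the data, the range covariate gave 1075 genes with the 6 arrays alone and 1208 without Cebpa-deleted replicate 2. Higher genes made up 72.3% of calls after quantile normalization, 72.0% after quantile normalization within each time and 56.4% with the range covariate. The difference of Cebpa stayed between -1.39 and -0.88 and passed except with the 6 arrays alone (-1.10, adjusted p = 0.173) and with the replicate block (-1.10, adjusted p = 0.164). The median of mesothelial genes was 0.90 to 1.13 with an array left out, 1.17 with the replicate block and 1.14 with array weights. Replicate numbers 2 and 3 occur in both genotypes at 2 h, and what a shared number means is not stated in the sources used here. Same-numbered arrays deviated from their group means with correlations of -0.24 and -0.22. Deviations within a group of 3 depend on each other, so these correlations cannot decide whether the arrays were paired. Arrays of different numbers had correlations of up to 0.63 (control 3 with Cebpa-deleted 2) and 0.51 (control 1 with Cebpa-deleted 4), and down to -0.57 (control 1 with Cebpa-deleted 2) and -0.56 (control 3 with Cebpa-deleted 4); the block changed the medians of 4 of 52 lists by more than their spread. For 2 h against 0 h, 1 gene passed without control 2 h replicate 2, the 5S RNA gene n-R5s136, and 0 in the other fits. For 2 h against 24 h the count of 6138 ranged from 2563 to 8608 with an array left out, and was 2595 after quantile normalization, 1623 within each time, 11357 with array weights, 4073 for the upper 60 percent of genes and 0 with the range covariate. No called named gene changed direction under any setting. The cause of these changes was not tested. Of 71 called named genes besides Cebpa, 10 were still called without Cebpa-deleted replicate 3, 22 without control replicate 3 and 69 without Cebpa-deleted replicate 2.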
